A study of Mus musculus with 2 samples.

Results

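Axon guidance ligands and receptors were described across the brain regions of 2 mouse brain sections. They were the genes whose symbols place them among the ephrins and Eph receptors, the semaphorins of classes 3 to 7, the plexins and neuropilins, the slits and Robo receptors, and the netrins, netrin Gs and Unc5 receptors. A gene also needed at least 100 UMIs (unique molecular identifiers, each standing for 1 captured RNA molecule) over both sections. Of the 32285 genes listed, 66 matched by symbol and 61 had enough UMIs. These were 30 ligands, 30 receptors and Unc50, a Golgi protein gene that matched by spelling only and is no netrin receptor. The genes that missed the minimum were Epha1 with 20 UMIs, Ntng2 with 22, Efna4 with 76, Epha6 with 92 and Epha2 with 98. Just inside it were Ntn4 with 140 UMIs and Epha3 with 278. By family there were 7 ephrins, 11 Eph receptors, 15 semaphorins, 9 plexins, 2 neuropilins, 3 slits, 4 Robo receptors, 4 netrins, 1 netrin G and 4 Unc5 receptors. The spelling of the rule takes a number or the letters a to d after the family name, so that Sema3e, Sema3f, Sema3g, Sema4f and Sema4g are treated with the other pathway genes.

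Guidance ligands steer growing axons during development. Slits, netrins and class 3 semaphorins are secreted, whereas ephrins and the semaphorins of classes 4 to 7 are held on the cell surface. Slits signal through Robo receptors, netrins through Dcc and Unc5 receptors, ephrins through Eph tyrosine kinases, and semaphorins through plexins, with neuropilins as co-receptors of class 3. Netrin G1 is tied to the membrane by a lipid anchor and binds Lrrc4c in place of the netrin receptors. In the adult brain many of these genes stay active at synapses, in myelinating cells and in blood vessels.

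Gene expression was measured with 10x Visium, which captures the RNA of a thin tissue slice on a grid of barcoded spots, each wide enough for several cells. Both samples were fresh-frozen brain of wild-type C57BL/6 mice, an inbred strain, cut at 10 µm and labelled ZT12. They are 1 group of replicates, called sections 1 and 2, and the stated interest was in differences between regions, so every comparison is between regions. Whether the sections came from separate animals is not stated. P-values measure only how far differences between regions varied from 1 section to the other, pooled over the regions, which may be technical. A shift of a gene in a whole section is not part of that spread, because the fit holds a term for the section.

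After spots under 500 UMIs were left out, section 1 had 3030 spots with 58643229 UMIs and section 2 had 2531 with 55850965. The median spot held 18127 and 21555 UMIs. The 61 genes took 0.156% and 0.165% of the UMIs. Spots were sorted by lists of anatomical marker genes, none of them a guidance gene, and 16 groups had enough spots in both sections. They held 3968 of 5561 spots, and 1410 spots matched no list well enough. A group is a set of spots that share marker genes and was not drawn on the tissue. A list of 4 olfactory bulb genes had only Cdhr1 and Doc2g detected, so its spots are called the Cdhr1 and Doc2g group and given no region. The sections did not hold the same regions in the same amounts. Layer 2 to 4 isocortex spots numbered 121 in section 1 and 29 in section 2, striatum spots 43 and 210, hypothalamus spots 61 and 270, and midbrain dopamine spots 106 and 21. Cerebellum spots numbered 182 and 1, and the cerebellar markers summed to 79.3 to 145 CPM (counts scaled to 1000000 in each sum) in the other groups of section 1 against 2.57 to 16.1 CPM in section 2. The source of these counts and their part in the results below were not tested.

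Guidance genes of each ligand and receptor family differed among regions. Ntng1 stood out in thalamus spots, and Robo3, Epha7, Slit1 and Sema5a in dentate gyrus spots. Unc5d was highest in upper isocortex and Ephb6 in deep isocortex, and Plxnd1 was high in upper isocortex and striatum. Sema4d, Plxnb3, Unc5b and Efnb3 were highest in fibre tract spots, and Sema3b in choroid plexus and leptomeninges spots. Counts were summed per section and group and compared with edgeR's quasi-likelihood test, with Benjamini-Hochberg adjustment over 14326 genes. Among the 61 genes, 51 differed among the groups at an adjusted p under 0.05, against 54.7% of all genes tested. The 10 that missed were Efna2, Epha3, Nrp1, Ntn3, Ntn4, Robo4, Sema4b, Sema4c, Sema6c and Unc50.

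Each group was then set against the mean of the other 15, and a gene was called when its adjusted p was under 0.05, the difference at least 2-fold (1 on the log2 scale) and the sign the same in both sections. In at least 1 group 34 of the 61 genes were called, 18 ligands and 16 receptors, which is 55.7% against 23.9% of all genes tested. Among genes of at least 100 but under 1000 UMIs these shares were 56.3% of 16 guidance genes and 43.1% of all genes, and among genes of 1000 UMIs or more 55.6% of 45 and 15.2%. There were 43 calls of higher and 15 of lower expression. In 27 of these 58 calls the group lay beyond each of the other groups in both sections, and in 17 in 1 section only. The highest group was the same in both sections for 31 of the 61 genes. Neither count was made over all genes tested, so they do not show whether guidance genes differ from other genes in this. The groups share sums, so their comparisons are not independent. Where a call was lost when 1 of the group's own sums was left out, its log2 difference without that sum is given with the adjusted p it then had.

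Dentate gyrus spots held the most calls, and fibre tract and layer 2 to 4 isocortex spots came next with 8 each. Dentate gyrus spots had 7 guidance genes higher, where 2.45% of all tested genes were called higher, and 4 lower, against 0.803%. Fibre tract spots had 8 higher against 3.76% of all genes, and none lower against 0.188%. In layer 2 to 4 isocortex 6 were higher against 1.61% and 2 lower against 1.14%, and in layers 5 and 6 there were 2 higher against 1.42% and 1 lower against 1.01%. CA1 spots had 3 higher against 1.15% and none lower against 0.489%, and CA3 spots 6 higher against 1.07% and 1 lower against 0.272%. Thalamus spots had 1 higher against 2.12% and 2 lower against 0.893%. Striatum spots had 1 higher against 1.54% and none lower against 0.168%, and brainstem spots had none higher against 0.67% and 2 lower against 0.789%. Leptomeninges spots had 6 higher against 6.49% and 1 lower against 0.0977%, a share of guidance genes near that of all genes for the higher calls. Choroid plexus spots had 2 higher against 4.57% and 1 lower against 0.216%, also near or below it for the higher ones. Ependyma spots had 1 higher against 1.98% and 1 lower against 0.0419%.

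In 4 groups no guidance gene was called. By edgeR's quasi-likelihood test, 5 guidance genes had an unadjusted p under 0.05 in claustrum, endopiriform and layer 6b spots, where 0.0279% of all genes were called higher and 0% lower. This was so for 23 in hypothalamus spots (0.845% and 0.154%), 11 in midbrain dopamine spots (0.384% and 0.349%) and 7 in the Cdhr1 and Doc2g group (0.0698% and 0.00698%). Without the 2-fold and sign rules, 8 guidance genes had an edgeR adjusted p under 0.05 in hypothalamus spots (13.1%, against 6.91% of all genes). In midbrain dopamine spots there were 2 (3.28%, against 4.01%), and in the remaining groups without a call 0. DESeq2 called 1 in midbrain dopamine spots and 0 in the other 3 groups. The median log2 difference of the 61 genes was small in every group. It ran from -0.18 in fibre tract spots, where all tested genes had a median of 0.02, to 0.10 in dentate gyrus spots, where they had -0.01.

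**Figure D1:**
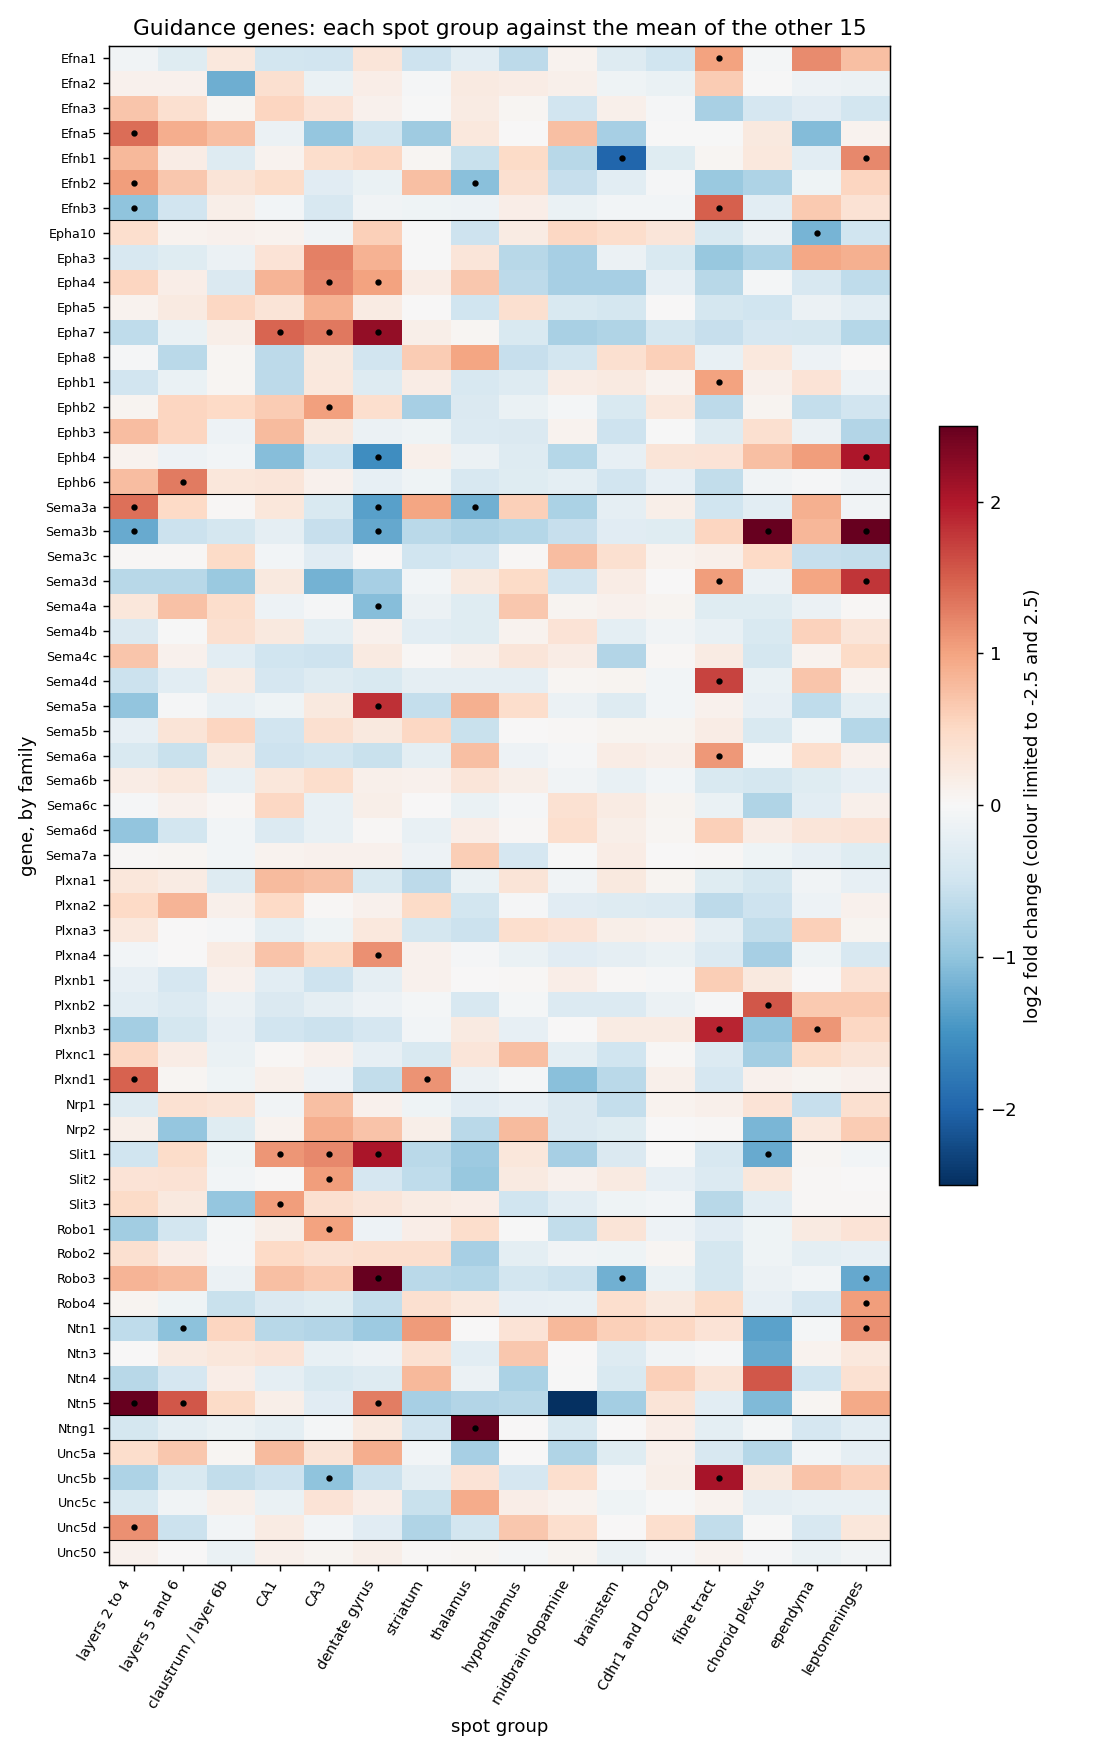
Rows are the 61 guidance genes by family, columns the 16 spot groups, and colour the log2 difference of a group from the mean of the other 15 in the edgeR fit, with strong colours cut off at a common limit. Dots mark the 58 calls, of which 43 were higher and 15 lower, and the dentate gyrus and fibre tract columns hold 11 and 8 of them.

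Among the netrins and netrin Gs, Ntng1 (chr3:109780050-110149972) had the smallest adjusted p of any call. Netrin G1 binds Lrrc4c across the synapse and is known from thalamocortical axons. In thalamus spots it had 267 CPM in section 1 and 229 CPM in section 2, from 1543 and 1126 counts. The other groups lay between 18.8 and 60.4 CPM in section 1 and between 37.8 and 61.1 CPM in section 2. Thalamus spots thus stood apart from all other groups in both sections, and the other 15 formed a narrow band. The log2 difference was 2.55 ± 0.09 (SE, n = 2 sections), with an edgeR adjusted p of 9.74e-28. Lrrc4c, its receptor, had 31.8 and 30.2 CPM in thalamus spots and was lower there than the mean of the other groups by -0.47 ± 0.10 on the log2 scale (adjusted p = 0.000352), which was short of 2-fold.

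Secreted netrins had fewer counts. Ntn5, a little-studied netrin, had 16.4 and 11.6 CPM in layer 2 to 4 isocortex, 6.83 and 10.1 CPM in layers 5 and 6, and a median of 2.71 and 2.63 CPM over all groups. Both cortical groups were above that median in both sections. The log2 differences were 2.57 ± 0.31 and 1.54 ± 0.27, with edgeR adjusted p of 2.26e-08 and 2.6e-05. Without the sum of section 1, the layer 2 to 4 difference was 1.91 with an adjusted p of 0.381, from 8 counts in section 2. In dentate gyrus spots Ntn5 had 4.62 and 10.5 CPM and a log2 difference of 1.29 ± 0.36 (adjusted p = 0.00766), which was 0.73 with an adjusted p of 0.424 without the sum of section 2. Ntn5 overlaps the protein-coding gene Sec1 in RefSeq, and since the strand used in counting is not stated, their reads cannot be told apart. Ntn1, the classical midline attractant, had 19.6 and 12.2 CPM in leptomeninges spots and was called higher (1.16 ± 0.21, adjusted p = 4.36e-05; 1.08 with 0.275 without the sum of section 1). In layers 5 and 6 it had 5.12 and 2.37 CPM and was called lower (-1.03 ± 0.24, adjusted p = 0.000856), and this call was lost without either sum (-1.42 with 0.0639, and -0.90 with 0.0164). Ntn3 and Ntn4 were not called in any group.

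The promoters of Ntng1 and Robo3 are shown because each gene was far above all other groups in 1 neuronal group in both sections. The sequences are RefSeq's on GRCm38.p6, 250 bases before the start site that the table gives, on the gene's own strand. That of Ntng1 is chr3:110143473-110143722 and that of Robo3 is chr9:37433176-37433425, both on the minus strand. Both windows lie inside the span of their gene, which on this strand begins at base 110149972 for Ntng1 and 37433436 for Robo3. The sequence before those bases was not examined. Capitals mark the E-box, the motif CANNTG of basic helix-loop-helix factors.
Ntng1: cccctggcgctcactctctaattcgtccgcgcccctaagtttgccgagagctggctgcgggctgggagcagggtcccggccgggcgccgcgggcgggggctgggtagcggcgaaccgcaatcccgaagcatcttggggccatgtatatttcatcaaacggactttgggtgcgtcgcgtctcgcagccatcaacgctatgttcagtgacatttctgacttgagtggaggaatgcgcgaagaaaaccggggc
Robo3: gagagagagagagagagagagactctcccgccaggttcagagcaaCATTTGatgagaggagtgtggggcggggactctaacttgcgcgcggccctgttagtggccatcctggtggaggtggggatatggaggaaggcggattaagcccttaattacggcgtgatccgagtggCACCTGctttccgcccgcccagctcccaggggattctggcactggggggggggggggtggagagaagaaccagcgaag
Robo3 had 2 E-boxes and Ntng1 none, and both windows were rich in G and C, at 61.2% and 62.4%, where the median of all windows was 52.4%. Of the 61 genes 53 had a window in the table. On both strands, an E-box was in 39.6% of them and in 66.2% of all 32851 windows of this length. The TCF and LEF motif CTTTGA was in 2 of the 53 (3.77%) and in 13.8% of all windows, and the SOX motif ACAAAG in 4 (7.55%) and in 16.5%. Neither was in the windows shown, and no motif overlapped another in them. A match of letters is a description and no evidence of binding.

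**Figure D2:**
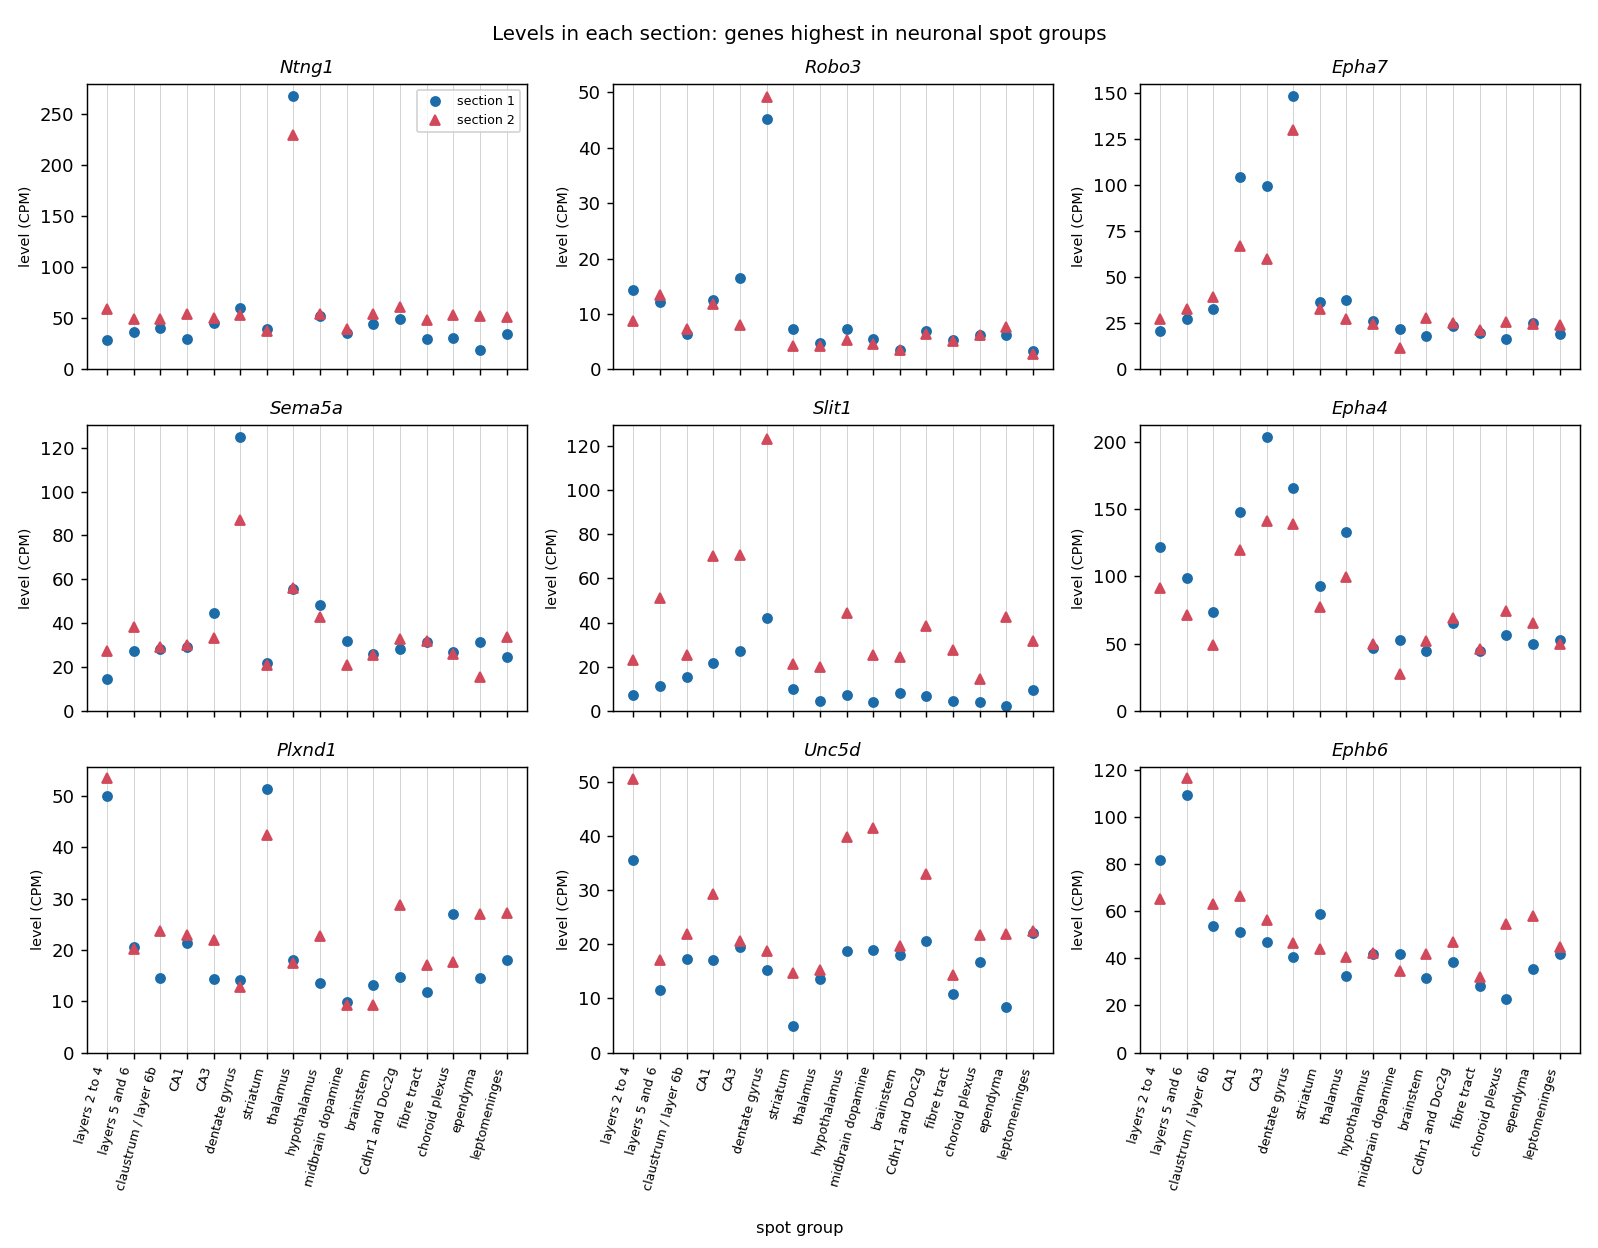
Each panel shows 1 guidance gene, with its level in CPM on the vertical axis and the 16 spot groups on the horizontal axis. Circles are section 1 and triangles section 2. Ntng1 reached 267 and 229 CPM in thalamus spots and at most 61.1 CPM elsewhere, and Slit1 was higher in section 2 in each of the 16 groups.

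Unc5 receptors, which mediate repulsion by netrins, differed by member. Unc5b (chr10:60762594-60831581) had 50.1 and 61.4 CPM in fibre tract spots, from 171 and 239 counts. The other groups reached 31.3 and 21.9 CPM, both in ependyma spots, so fibre tract spots were highest in both sections. The log2 difference was 2.07 ± 0.12 (SE, n = 2; edgeR adjusted p = 3.88e-19). In CA3 spots Unc5b had 9.04 and 7.61 CPM and was called lower (-1.01 ± 0.27, adjusted p = 0.00845), a call that neither section's sum made alone (-1.12 with 0.0686, and -0.81 with 0.335). Unc5d, which also binds Flrt proteins, had 35.7 and 50.6 CPM in layer 2 to 4 isocortex and at most 22.0 and 41.5 CPM in the other named groups. Its difference was 1.15 ± 0.15 (adjusted p = 2.27e-07), and without the sum of section 1 it was 1.14 with an adjusted p of 0.069. Unc5a and Unc5c were not called. Their highest levels were in dentate gyrus spots for Unc5a (68.6 and 78.5 CPM) and in thalamus spots for Unc5c (36.0 and 36.9 CPM), in both sections.

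Higher calls among slits and Robo receptors, other than that of Robo4, were in hippocampal groups. Slit1 (chr19:41597824-41747275), a secreted repellent, had 42.3 CPM in dentate gyrus spots of section 1 and 123 CPM in section 2. The next group was CA3, at 27.1 and 70.7 CPM, so the dentate gyrus was highest in both sections. The log2 difference was 2.04 ± 0.14 (SE, n = 2; edgeR adjusted p = 3.23e-16), and it was 1.19 ± 0.17 in CA3 and 1.11 ± 0.15 in CA1 spots (adjusted p = 6.55e-07 and 3.63e-07). Slit1 stood apart between the sections. Over the 16 groups together it had 11.6 CPM in section 1 and 42.2 CPM in section 2, and it was higher in section 2 in 16 of 16 groups, with a median log2 ratio of 1.66. Nrp1 followed with a median of 1.197 (4.06 and 8.95 CPM; higher in section 2 in 15 of 16 groups). These were 2 of the 61 genes (3.28%), where 1.05% of all tested genes had a median ratio of at least 2-fold in either direction. The sections also differ in the Space Ranger version that the files name, so section and version cannot be told apart. The fit holds a term for the section, and without it the Slit1 differences were 1.19 in CA1 (adjusted p = 0.321) and 1.32 in CA3 (adjusted p = 0.33), neither of them called. In choroid plexus spots Slit1 had 2 and 14 counts (4.17 and 14.5 CPM) and was called lower (-1.26 ± 0.38, adjusted p = 0.0206), a call lost without either sum (-1.29 with 0.0585, and -1.14 with 0.637).

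**Figure D3:**
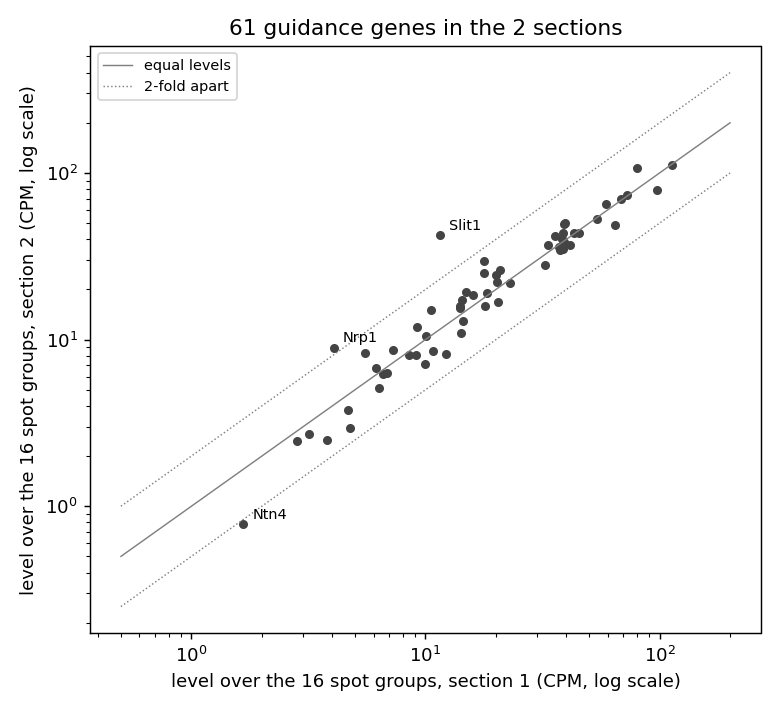
Each point is 1 of the 61 guidance genes, with its level over the 16 spot groups together in section 1 (horizontal axis) and section 2 (vertical axis), both in CPM on log scales. The solid line marks equal levels and the dotted lines a 2-fold difference, and Slit1 lies above the upper dotted line at 11.6 and 42.2 CPM.

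Slit2 and Slit3 were called in 1 hippocampal group each. Slit2 had 27.1 and 34.5 CPM in CA3 spots (1.04 ± 0.22, edgeR adjusted p = 0.000852; 1.01 with 0.135 without the sum of section 2), and choroid plexus spots of section 1 were higher, at 35.4 CPM. Slit3 had 11.6 and 12.5 CPM in CA1 spots (1.05 ± 0.25, adjusted p = 0.00185), and it was 1.001 with 0.0746 and 1.13 with 0.0535 when either sum was left out.

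Robo3 (chr9:37416045-37433436), a divergent receptor known from commissural axons, stood out in 1 group. It had 45.1 and 49.2 CPM in dentate gyrus spots, from 127 and 89 counts, and at most 16.6 and 13.3 CPM elsewhere. No other group overlapped the dentate gyrus in either section. The log2 difference was 2.78 ± 0.14 (SE, n = 2; edgeR adjusted p = 2.29e-20). Robo3 was called lower in brainstem spots, at 3.45 and 3.48 CPM from 12 and 3 counts (-1.19 ± 0.32, adjusted p = 0.00894), and in leptomeninges spots, at 3.36 and 2.81 CPM from 11 and 3 counts (-1.27 ± 0.33, adjusted p = 0.00312). Both calls were lost without the sum of section 1, at -1.11 with an adjusted p of 0.63 and -1.41 with 0.325. Robo1 had 30.9 and 21.0 CPM in CA3 spots and was highest there in both sections (1.01 ± 0.20, adjusted p = 0.000254; 0.87 with 0.0676 without the sum of section 1). Robo2 was not called in any group and had 50.5 and 59.7 CPM in dentate gyrus spots. Robo4, known from endothelial cells, had 11.01 and 9.35 CPM in leptomeninges spots (1.05 ± 0.27, adjusted p = 0.00354; 1.03 with 0.404 without the sum of section 1) and did not pass the test over all groups. The endothelial marker list summed to 513 and 458 CPM there and to 244 to 513 CPM over the groups of section 1, and its part in the Robo4 result was not tested.

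Ephrins are the surface ligands of Eph receptors. Efnb3 (chr11:69554092-69561150), known as a midline barrier for crossing axons, had 279 and 231 CPM in fibre tract spots and at most 211 and 128 CPM elsewhere. Fibre tract spots were highest in both sections, and the log2 difference was 1.49 ± 0.09 (SE, n = 2; edgeR adjusted p = 9.79e-19). In layer 2 to 4 isocortex Efnb3 had 45.4 CPM in section 1 and 86.7 CPM in section 2, the lowest group in section 1 only (-1.01 ± 0.15, adjusted p = 2.7e-06; -0.27 with 0.823 without the sum of section 1). Efna5 and Efnb2 were called higher in these cortical spots. Efna5 had 34 and 4 counts (9.78 and 5.78 CPM; 1.39 ± 0.33, adjusted p = 0.00199), and Efnb2 had 26.5 and 21.7 CPM (1.04 ± 0.18, adjusted p = 2.7e-05). Without the sum of section 1 they had 1.06 with 0.822 and 0.67 with 0.751. Efnb2 in striatum spots came close to these cortical levels, at 24.5 and 21.5 CPM. It was lowest in thalamus spots in both sections, at 6.06 and 6.93 CPM (-1.05 ± 0.18, adjusted p = 1.06e-05). Efnb1 had 14.99 and 14.96 CPM in leptomeninges spots, the highest group in both sections (1.21 ± 0.21, adjusted p = 1.82e-05; 0.99 with 0.202 without the sum of section 1). In brainstem spots it had 7 counts and 1 count (-1.98 ± 0.39, adjusted p = 0.000255; -2.84 with 0.16 without the sum of section 1). Efna1 had 14.1 and 15.9 CPM in fibre tract spots (1.01 ± 0.19, adjusted p = 3.53e-05; 0.93 with 0.0161 without the sum of section 2), although ependyma spots of section 1 had 29.2 CPM. Efna2 and Efna3 were not called.

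Eph receptors were led by Epha7 and Epha4 in the hippocampus. Epha7 (chr4:28813066-28967503), a receptor of ephrin-A ligands, had 148 and 130 CPM in dentate gyrus spots, 105 and 67.0 CPM in CA1 and 99.5 and 59.98 CPM in CA3. The medians over all groups were 25.6 and 27.4 CPM. These 3 hippocampal groups lay above all others in both sections. The log2 differences were 2.20 ± 0.11, 1.46 ± 0.12 and 1.32 ± 0.14 (SE, n = 2; edgeR adjusted p = 2.29e-20, 1.6e-12 and 1.73e-09). Epha4 (chr1:77367182-77515107), which binds ephrins of both classes, was highest in CA3 spots in both sections, at 203 and 141 CPM, with dentate gyrus spots next at 165 and 139 CPM. These 2 groups lay close together in section 2. Their log2 differences were 1.21 ± 0.10 and 1.01 ± 0.10 (adjusted p = 6.56e-13 and 1.22e-11). Ephb2 had 28.6 and 18.4 CPM in CA3 spots (1.02 ± 0.20, adjusted p = 0.000333; 0.87 with 0.0845 without the sum of section 1).

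Ephb6 (chr6:41603834-41620509), a receptor whose kinase is inactive, had its highest level in deep isocortex. It had 109 and 117 CPM in layers 5 and 6, from 705 and 393 counts, and at most 81.7 CPM (layers 2 to 4) in section 1 and 66.3 CPM (CA1) in section 2. The log2 difference from the other groups was 1.31 ± 0.08 (SE, n = 2; edgeR adjusted p = 2.5e-17). In layers 2 to 4 it had 81.7 and 65.0 CPM (0.77 ± 0.11, adjusted p = 1.5e-06), short of 2-fold. The direct comparison of layers 2 to 4 with layers 5 and 6 gave -0.50 ± 0.13 (adjusted p = 0.0264), also short of 2-fold, so Ephb6 was not called between the layers. Ephb1 had 69.5 and 67.1 CPM in fibre tract spots (1.02 ± 0.11, adjusted p = 3.22e-10), close to the 2-fold limit, and it was 0.98 without the sum of section 2. Ephb4, known from venous endothelium, had 11.6 and 10.3 CPM in leptomeninges spots, the highest in both sections (2.03 ± 0.31, adjusted p = 1.45e-06). In dentate gyrus spots it had 5 counts in section 1 and 0 in section 2, where 0 of 1808269 UMIs allows up to 1.66 CPM. That call (adjusted p = 0.0487) was lost without either sum, at adjusted p of 0.0599 and 0.344, and with DESeq2, at 0.0908. Epha10 had 14.6 and 12.9 CPM in ependyma spots, from 7 and 10 counts, the lowest in both sections (-1.15 ± 0.32, adjusted p = 0.0223; -1.17 with 0.309 and -1.13 with 0.261 without either sum). Epha3, Epha5, Epha8 and Ephb3 were not called in any group.

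Higher calls among semaphorins were split between neuronal spot groups, fibre tract spots, and choroid plexus and leptomeninges spots. Sema5a (chr15:32244813-32696341), a surface semaphorin, had 125 and 86.8 CPM in dentate gyrus spots, and thalamus spots were next at 55.5 and 56.0 CPM. The dentate gyrus stood apart in both sections, with a log2 difference of 1.82 ± 0.11 (SE, n = 2; edgeR adjusted p = 1.62e-17). Sema3a did not set layer 2 to 4 isocortex apart in this way. Striatum spots had 22.0 CPM of it in section 1 and ependyma spots 21.9 CPM in section 2. Sema3a, a secreted repellent, had 22.1 and 20.2 CPM in layer 2 to 4 isocortex (1.37 ± 0.24, adjusted p = 2.92e-05; 1.03 with 0.651 without the sum of section 1). It was called lower in thalamus spots, at 3.46 and 4.89 CPM (-1.21 ± 0.26, adjusted p = 0.000322), and in dentate gyrus spots, at 4.26 and 3.32 CPM (-1.35 ± 0.36, adjusted p = 0.00512; -1.73 with 0.0684 and -1.12 with 0.119 without either sum). Sema4a was lower in dentate gyrus spots, at 11.4 and 7.74 CPM (-1.07 ± 0.25, adjusted p = 0.00116; -0.84 with 0.0679 without the sum of section 2).

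Sema4d (chr13:51685529-51793678), the ligand of plexin B1 and known from oligodendrocytes, had 153 and 167 CPM in fibre tract spots. Ependyma spots were next at 100 and 88.7 CPM, and the remaining groups had lower levels. Fibre tract spots lay above all others in both sections, with a log2 difference of 1.68 ± 0.07 (SE, n = 2; edgeR adjusted p = 2.63e-23). Sema6a, a transmembrane semaphorin, had 59.8 and 74.0 CPM there (1.08 ± 0.12, adjusted p = 1.72e-10), just above thalamus spots at 58.0 CPM in section 1 and above their 53.6 CPM in section 2. Sema3d had 17 counts in each section (4.98 and 4.37 CPM; 1.05 ± 0.32, adjusted p = 0.0105), and this call was lost without either sum (1.09 with 0.124, and 1.02 with 0.125). The fibre tract list of myelin genes summed to 37160 and 40380 CPM in these spots and to at most 26568 and 15175 CPM in the others, and all 9 of its genes had UMIs. The oligodendrocyte precursor list was also at its highest there, at 482 and 685 CPM. In spot sums, more cells of a type and more RNA per cell cannot be told apart.

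Sema3b (chr9:107597674-107609241), a secreted class 3 semaphorin, had the largest difference of any guidance gene. It had 83.3 and 74.3 CPM in choroid plexus spots and 57.2 and 39.3 CPM in leptomeninges spots. The ependyma and fibre tract groups came next, with at most 14.6 CPM, so both groups were apart from the rest of the brain. The log2 differences were 3.57 ± 0.21 and 2.72 ± 0.15 (SE, n = 2; edgeR adjusted p = 6.8e-19 and 1.68e-19). Sema3b overlaps the protein-coding gene Lsmem2, and their reads cannot be told apart without strand. It was called lower in layer 2 to 4 isocortex (15 and 2 counts; -1.26 ± 0.33, adjusted p = 0.00501; -1.44 with 0.752 without the sum of section 1) and in dentate gyrus spots (14 and 4 counts; -1.28 ± 0.31, adjusted p = 0.00206; -1.83 with 0.0513 without the sum of section 1). Against the other neuronal groups alone both calls were lost, at -0.62 with an adjusted p of 0.363 and -0.65 with 0.215. Sema3d had 8.56 and 7.48 CPM in leptomeninges spots, the highest in both sections (1.78 ± 0.33, adjusted p = 5.41e-05; 1.80 with 0.137 without the sum of section 1). The leptomeninges spots also held the highest sums of the mural list (1254 and 966 CPM), the red blood cell list (8407 and 13402 CPM) and the astrocyte list (1814 and 1539 CPM), whose part in these calls was not tested. Choroid plexus spots held 727 and 457 CPM of the leptomeninges list, against 1237 and 796 CPM in leptomeninges spots. Of the 15 semaphorins 7 were called. Sema6b, the one with most UMIs among those not called, ran from 47.9 to 111 CPM in section 1 and from 72.3 to 122 CPM in section 2.

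**Figure D4:**
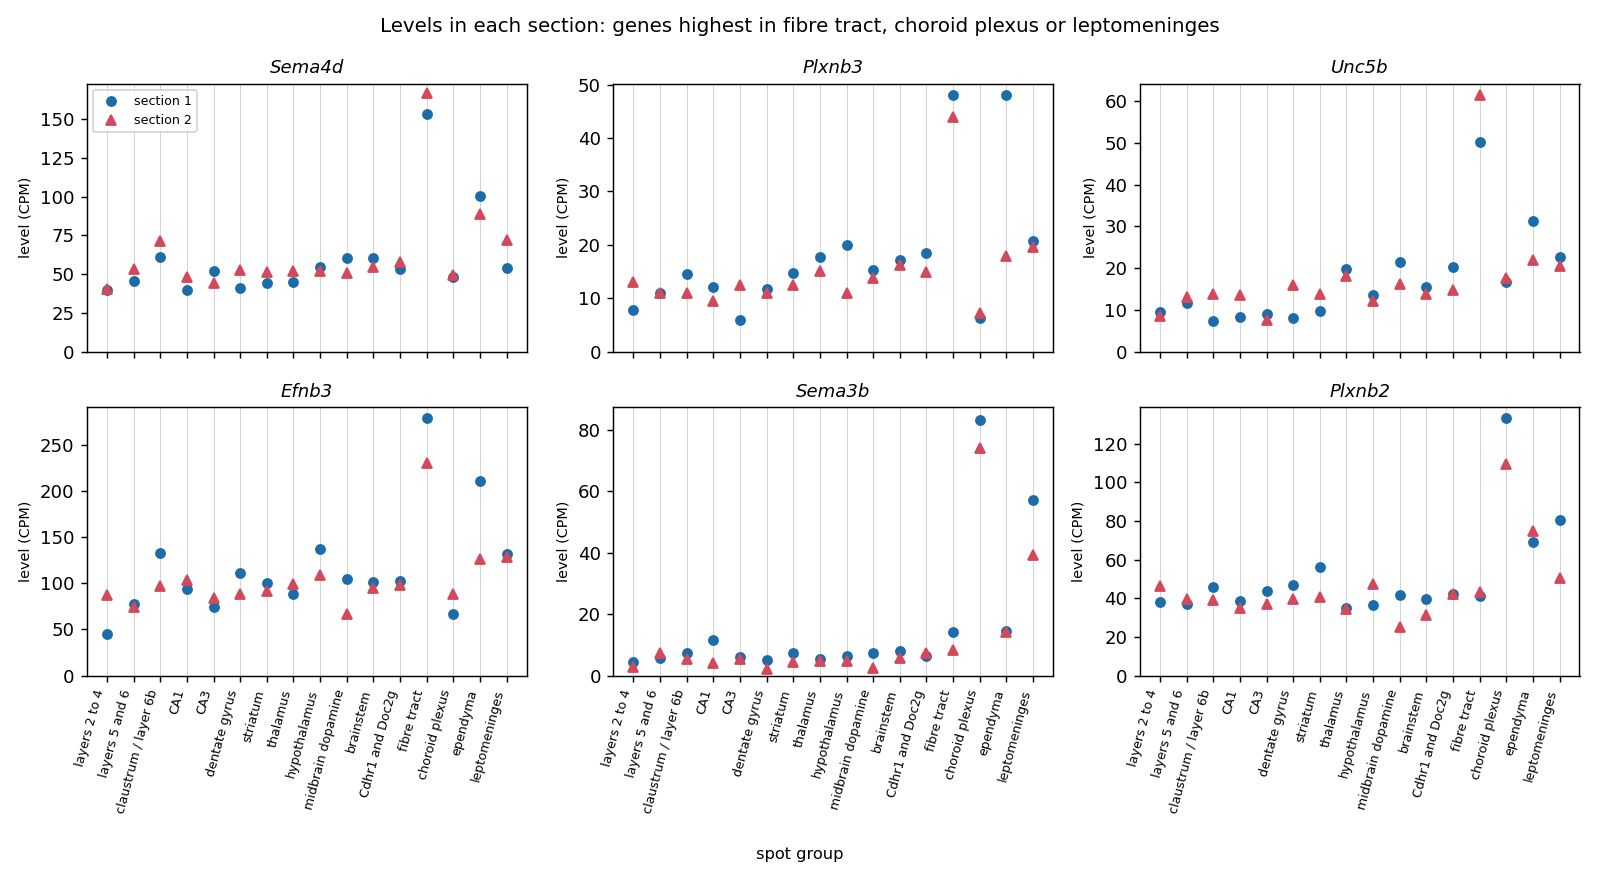
Each panel shows 1 guidance gene, with its level in CPM on the vertical axis and the 16 spot groups on the horizontal axis, circles for section 1 and triangles for section 2. Sema4d, Unc5b and Efnb3 were highest in fibre tract spots in both sections, and Sema3b and Plxnb2 in choroid plexus spots, while Plxnb3 had 48.0 CPM in ependyma spots of section 1 and 18.0 CPM in section 2.

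Plexins are the signalling receptors of semaphorins, and 4 of the 9 were called. Plxnd1 (chr6:115954811-115995339), the receptor of Sema3e, was high in layer 2 to 4 isocortex, at 50.0 and 53.5 CPM, and in striatum spots, at 51.4 and 42.3 CPM. No other group was above 28.8 CPM in either section. The log2 differences were 1.48 ± 0.16 and 1.12 ± 0.16 (SE, n = 2; edgeR adjusted p = 6.05e-10 and 6.49e-07). The striatum call was lost without the sum of section 2, at 1.46 with an adjusted p of 0.0934. In section 1 that group had 43 spots with a median of 9660 UMIs, and its choroid plexus list summed to 8256 CPM against 1935 CPM in section 2.

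Plxnb3 (chrX:73756556-73772510), known from oligodendrocytes, had 48.1 and 44.0 CPM in fibre tract spots, where it was highest in both sections (1.90 ± 0.13, edgeR adjusted p = 6.2e-17). In ependyma spots it had 48.0 CPM in section 1 but 18.0 CPM in section 2 (1.10 ± 0.29, adjusted p = 0.0141; 0.42 with 0.846 without the sum of section 1). The myelin list summed to 26568 CPM in those ependyma spots of section 1 and to 15175 CPM in section 2, and its part in this call was not tested. Plxnb2 (chr15:89155546-89182018) had 133 and 109 CPM in choroid plexus spots and at most 80.4 and 74.6 CPM elsewhere (1.56 ± 0.15, adjusted p = 7.33e-12). Plxna4, a receptor of class 3 and class 6 semaphorins, was highest in dentate gyrus spots in both sections, at 82.8 and 63.6 CPM (1.14 ± 0.12, adjusted p = 6.75e-11; 0.92 without the sum of section 1, with an adjusted p of 0.00036). Plxna1, Plxna2, Plxna3, Plxnb1 and Plxnc1 and both neuropilins were not called in any group. Plxnc1 in hypothalamus spots (30.4 and 39.2 CPM; 0.75 ± 0.13, adjusted p = 8.64e-05) had the smallest adjusted p of any guidance gene in that group. The hypothalamus marker list summed to 1440 CPM in these spots of section 1, where another group reached 1474 CPM. In section 2 it summed to 1832 CPM, against at most 1559 CPM in the other groups.

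Direct comparisons within the isocortex and hippocampus used the same fit. In layers 2 to 4 against layers 5 and 6, 3 guidance genes were higher, where 0.349% of all tested genes were, and none lower, against 0.307%. All 3 were receptors. Unc5d had 35.7 and 50.6 CPM in the upper layers and 11.6 and 17.2 CPM in the deep layers, a log2 difference of 1.58 ± 0.20 (edgeR adjusted p = 5.52e-07). Plxnd1 had 50.0 and 53.5 CPM against 20.6 and 20.2 CPM (1.35 ± 0.19, adjusted p = 6.43e-06; 1.204 with 0.108 without the upper layers' sum of section 1). Nrp2, a class 3 co-receptor, had 15.8 and 46.2 CPM against 8.38 and 16.02 CPM (1.06 ± 0.29, adjusted p = 0.0423). The Nrp2 levels of the 2 layer groups overlapped between sections, and the call was lost without the upper layers' sum of section 2 (0.70 with 0.418) and without the deep layers' sum of section 1 (0.84 with 0.406). Sema3e, the ligand of plexin D1, ran the other way, with 12.4 and 14.5 CPM in the upper and 39.9 and 29.4 CPM in the deep layers (-1.51 ± 0.23, adjusted p = 2.7e-05). Without the section term the Plxnd1 call held and the Unc5d and Nrp2 calls were lost (1.52 with an adjusted p of 0.0552, and 1.05 with 0.912).

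Dentate gyrus spots against CA1 and CA3 had 2 guidance genes higher (1.24% of all tested genes) and 1 lower (0.461%). Robo3 had 45.1 and 49.2 CPM against 12.6 and 11.8 CPM in CA1 and 16.6 and 8.06 CPM in CA3, a log2 difference of 1.95 ± 0.17 (edgeR adjusted p = 1.34e-11). Sema5a had 125 and 86.8 CPM against 29.3 and 30.3 CPM in CA1 and 44.5 and 33.1 CPM in CA3 (1.65 ± 0.14, adjusted p = 8.87e-12). Plxna1, a receptor of class 3 semaphorins with neuropilins, had 34.5 and 29.9 CPM against 77.2 and 60.6 CPM in CA1 and 65.6 and 65.3 CPM in CA3 (-1.07 ± 0.14, adjusted p = 3.61e-07). The groups did not overlap for any of these 3 genes. The Plxna1 difference passed just below 2-fold without the CA1 sum of section 1 (-0.97) or the dentate gyrus sum of section 2 (-0.99).

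CA1 against CA3 gave no call among the guidance genes, where 0.3% of all genes were called higher and 0.293% lower. By edgeR 14 of the 61 had an unadjusted p under 0.05, and DESeq2 called 0. Ephb1 had the smallest adjusted p, 0.0204, at 27.0 and 22.9 CPM in CA1 and 58.0 and 36.3 CPM in CA3 (-0.87 ± 0.22), short of 2-fold.

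Other genes of the guidance pathways were taken from 2 lists. Of the list of other ligands and receptors, 21 of 22 genes could be tested, and all 38 of the list of intracellular signalling genes. In thalamus spots, where Ntng1 was called, 2 signalling genes were higher and none lower. Both activate Rac GTPases: Vav3 had 70.3 and 44.6 CPM (2.48 ± 0.11, edgeR adjusted p = 7.68e-24), highest in both sections, and Tiam1 had 211 and 155 CPM (1.52 ± 0.08, adjusted p = 2.33e-21). In dentate gyrus spots 2 signalling genes were higher, Kalrn at 455 and 385 CPM (1.31 ± 0.09, adjusted p = 6.45e-17) and Tiam1 at 156 and 165 CPM (1.23 ± 0.09, adjusted p = 5.67e-15), and 1 other ligand, Sema3f, was lower (-1.07 ± 0.29, adjusted p = 0.00575). Layer 2 to 4 isocortex had 3 signalling genes higher, Rnd1, Kalrn and Ngef (1.18 ± 0.15, 1.11 ± 0.09 and 1.03 ± 0.11), and 1 lower, Vav3 (-1.10 ± 0.27). Vav3 was also the 1 called in layers 5 and 6 (-1.03 ± 0.19). Ngef, an exchange factor downstream of EphA receptors, was the 1 higher in striatum spots, at 262 and 342 CPM (1.40 ± 0.11, adjusted p = 2.96e-14).

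Sema3e was called higher in CA1 spots, at 48.8 and 40.7 CPM (1.26 ± 0.14, edgeR adjusted p = 1.86e-09), and in CA3 spots, at 49.0 and 37.6 CPM (1.198 ± 0.162, adjusted p = 2.85e-07). Dcc, the netrin receptor, was also higher in CA3 spots, at 18.1 and 21.9 CPM (1.01 ± 0.22, adjusted p = 0.00106), and Mical2 in CA1 spots (1.02 ± 0.11, adjusted p = 2.84e-10). Cntn2, an adhesion molecule of myelinated axons, was the 1 gene called in fibre tract spots, at 306 and 290 CPM (1.60 ± 0.07, adjusted p = 2.21e-22). In brainstem spots Limk1 was higher (1.09 ± 0.10) and Kalrn lower (-1.10 ± 0.13), and in choroid plexus spots Sema3f was higher (1.48 ± 0.31). Fes, Mical1 and Sema3g were higher in leptomeninges spots (1.35 ± 0.36, 1.10 ± 0.24 and 1.15 ± 0.32). No gene of either list was called in the remaining 5 groups. Tiam1 was higher in the dentate gyrus than in CA1 and CA3 (1.36 ± 0.12, adjusted p = 6.75e-12) and Sema3e lower (-1.28 ± 0.19, adjusted p = 4.11e-06).

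Ligands and their receptors were then set side by side over the 16 groups. For 34 pairs of guidance genes known to bind, log2 levels were averaged over the sections for each group. Spearman's correlation of these averages was taken as a description, and it can lie outside the values of the single sections. The points share 2 libraries and the depth of each sum, so no test was made. The median of the 34 pairs was 0.01, with 18 above 0 (52.9%), and that of the 866 other combinations of a ligand with a receptor was 0.02, with 52.9% above 0. The 866 were all combinations outside the 34 and were not chosen as pairs that do not bind. In single sections the median of the pairs was 0.04 and -0.16. Single pairs ran from 0.69 to -0.61, and the other combinations from 0.88 to -0.84.

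Sema6b with Plxna4 had the highest value, 0.69 (0.66 and 0.38 in sections 1 and 2), and both were above their medians in CA3 and dentate gyrus spots. Slit3 with Robo2 had 0.62 (0.56 and 0.22) and Sema4d with Plxnb1 0.61 (0.59 and 0.30). Next were Slit1 with Robo2 at 0.60 (0.71 and 0.05) and Efna3 with Epha4 at 0.55 (0.64 and 0.51). Sema4d and Plxnb1 shared a high level in fibre tract spots, where Plxnb1 had 93.5 and 95.1 CPM (0.61 ± 0.09, edgeR adjusted p = 6.13e-07). At the other end were Sema6a with Plxna2, at -0.61 (-0.48 and -0.59), and Efnb3 with Epha4, at -0.53 (-0.58 and -0.28). Fibre tract spots held the highest Sema6a and Efnb3 levels, while Plxna2 had 21.1 and 19.5 CPM there and Epha4 44.6 and 45.8 CPM, among the lowest of the groups. Ntng1 with Lrrc4c had -0.24 and Sema3e with Plxnd1 -0.18.

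**Figure D5:**
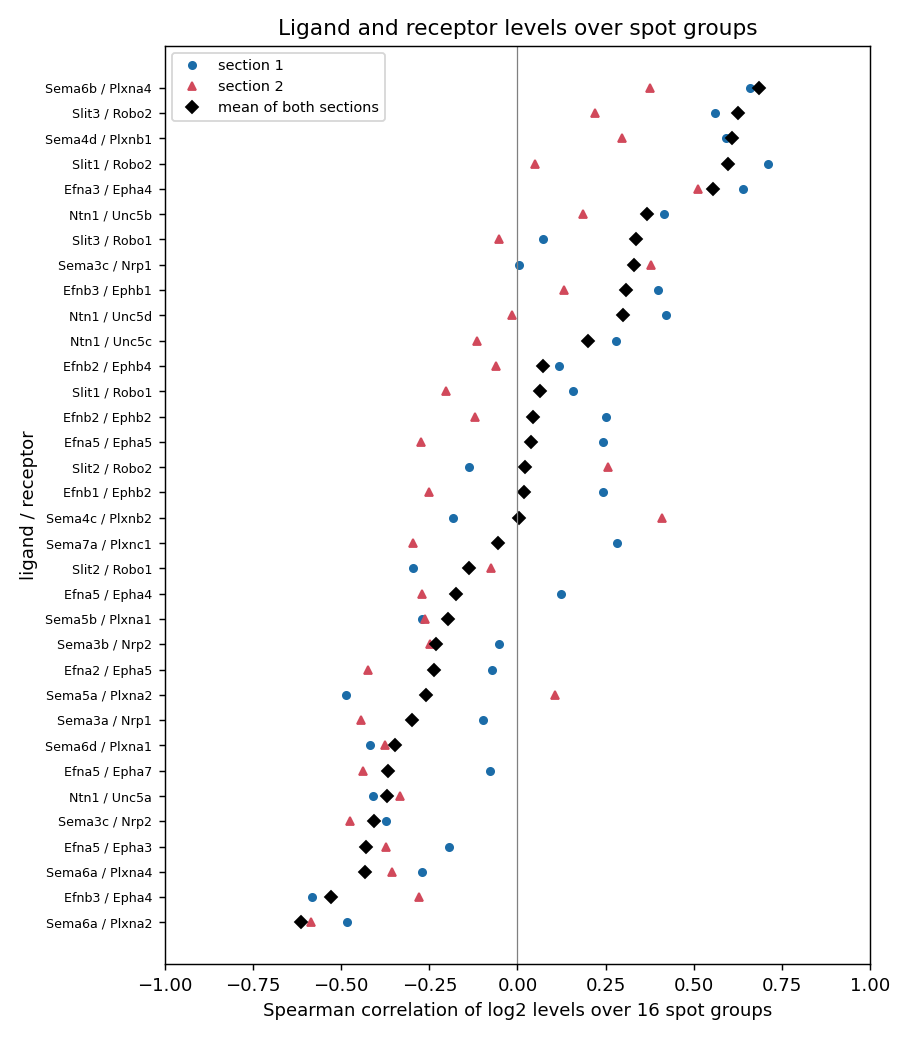
Rows are the 34 ligand and receptor pairs, and the horizontal axis is Spearman's correlation of their log2 levels over the 16 spot groups. Circles are section 1, triangles section 2 and diamonds the correlation of levels averaged over both sections. The diamonds run from 0.69 for Sema6b with Plxna4 to -0.61 for Sema6a with Plxna2.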

How the data were processed

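The deposited values were UMI counts for each gene in each spot under tissue, whole and not normalized, made by the authors with Space Ranger, per the file headers version 1.2.2 for section 1 and 2.0.1 for section 2. The submitters' processing notes name 2.0.1 and mm10 for both. The gene annotation behind them is not given in the sources used. All other deposited columns name genes or spots. Spot positions were not used, and doublets were not sought in spots of several cells. The sections shared 1965 spot barcodes, which are the array's own.

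The guidance genes, marker lists, pathway lists and ligand and receptor pairs were chosen with earlier results of these data known. Each marker with at least 200 UMIs was scaled over all spots as log counts per 10000, limited to 5 SD, and averaged per list. A spot joined its highest list at a score of at least 0.5 and 0.2 above the next, and 1147 spots lay within 0.1 of these limits. Testing required 15 spots of a group per section. Counts were summed per section and group (408571 to 7241104 UMIs a sum) and fitted with edgeR 4.0.16 in R 4.3.3, with TMM factors, a section term and the quasi-likelihood F test (residual df 15, prior df 29.78), over genes of at least 100 UMIs, without the anatomical markers, which define the groups. Benjamini-Hochberg adjustment ran over 14326 genes in each comparison. The SE is the log2 fold change divided by the square root of F, with the spread pooled over all groups. CPM values are scaled to 1000000 counts a sum, without TMM factors. The scripts were tested on simulated data. Named guidance genes were those called in a comparison or members of a pair, in full for up to 3 rises and 2 falls a group, with up to 3 called pathway genes a comparison. Those described beyond this rule were chosen after their values were seen.

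Alternatives were DESeq2 1.42.0, no TMM factors, filterByExpr, no filter, no section term, a stricter score (0.75 and 0.4), Leiden clusters (leidenalg 0.10.2, 19 clusters at resolution 1) and each section or sum left out. Leaving out the Cdhr1 and Doc2g list, comparing neuronal groups only, and leaving out sums in direct comparisons were added after seeing the data. In RefSeq 36 of the 61 genes overlap another gene, 6 of them a protein-coding one, and the strand of counting is not stated. Positions of genes come from RefSeq (GRCm38.p6).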

Additional observations from a re-analysis of the deposited data

How the results depend on the processing

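No call reversed in direction under any alternative. In single sections none could, because a call required the same sign in both sections. Of the 64 calls of guidance genes, 23 held under every alternative that could be fitted with them, among them Ntng1 in thalamus spots, Robo3, Epha7, Slit1 and Sema5a in dentate gyrus spots, Ephb6 in layers 5 and 6, Plxnd1 in layers 2 to 4, Sema4d, Plxnb3, Unc5b and Efnb3 in fibre tract spots, and Sema3b in choroid plexus and leptomeninges spots. Over the 58 calls against other groups, the neuronal groups alone gave 38, and single sections, where a call is a 2-fold difference with no test, gave 79 to 107. The stricter score gave 5 calls in layers 5 and 6 (3 in the report), 11 in CA3 (7), 1 in hypothalamus (0), 1 in midbrain dopamine (0), 1 in brainstem (2), 4 in ependyma (2), 2 in striatum (1) and 3 for CA1 against CA3 (0). Leiden clusters gave 3 in hypothalamus, 1 in brainstem and 2 in striatum. They put 2397 of the 4151 spots that had a group into the same group. No cluster was given to CA3, midbrain dopamine, ependyma, the Cdhr1 and Doc2g group, or claustrum, endopiriform area and layer 6b. Calls in those groups did not face this alternative. Without the Cdhr1 and Doc2g list there were 4 in CA3, 1 in ependyma, 1 in midbrain dopamine and 2 in striatum. Neuronal groups only gave 5 in thalamus (3), 3 in midbrain dopamine and 2 in striatum. DESeq2 and the fit with no filter each gave 1 in midbrain dopamine and 2 in striatum. The causes were not tested.

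Each tested group had a sum from both sections, so groups were compared within sections, with the section term as the replicate block. Without this replicate block, layers 2 to 4 had 5 calls (8 with it), striatum 2 (1), and layers 2 to 4 against layers 5 and 6 had 1 (3), while 53 of the 64 calls held.

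With 1 section or 1 sum left out, calls ran from 1 to 11 in layers 2 to 4, 0 to 2 in claustrum, endopiriform area and layer 6b, 4 to 15 in CA3, 7 to 12 in dentate gyrus, 0 to 9 in striatum, 1 to 7 in thalamus, 0 to 2 in hypothalamus, 0 to 13 in midbrain dopamine, 0 to 6 in brainstem, 5 to 7 in fibre tract, 2 to 16 in choroid plexus, 0 to 15 in ependyma and 3 to 9 in leptomeninges spots. They ran from 2 to 15 for layers 2 to 4 against layers 5 and 6, 0 to 10 for CA1 against CA3 and 3 to 9 for dentate gyrus against CA1 and CA3. These ranges mix 2 kinds of count. With 1 sum left out a call is tested, and with 1 section left out it is a 2-fold difference with no test. The upper ends in CA3, striatum, midbrain dopamine, brainstem, choroid plexus and ependyma spots came from single sections only. So did those in hypothalamus spots, in claustrum, endopiriform area and layer 6b spots, and in the direct comparisons. A lone sum was assumed to vary like the other groups. The median correlation of the ligand and receptor pairs ran from -0.162 to 0.0382 in single sections. Depth limits the small sums most, such as striatum in section 1 with 408571 UMIs, where 0 counts allow up to 7.34 CPM.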

Other observations

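Cerebellum spots were almost all in section 1, with 182 spots against 1 in section 2, so their levels have no replicate check and entered no comparison. Ntn1 was the 1 guidance gene above every tested group of section 1 there, at 25.5 CPM from 72 counts (exact 95% Poisson interval 20.0 to 32.2, which covers counting error only), against 4.17 to 19.6 CPM. Unc5b had 23.4 CPM and Epha8 17.4 CPM, both within the range of the other groups. Unc50, which the symbol rule took in by spelling, had 38.3 CPM there and ran from 24.1 to 39.2 CPM over the other groups of section 1.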
